A study of Mus musculus with 8 samples.

Results

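The progesterone and estrogen response axis was followed through 10 genes: the receptor genes Pgr, Esr1 and Nr3c1, the receptor co-chaperone genes Fkbp4 and Fkbp5, the stromal-epithelial signalling genes Ihh, Nr2f2 and Hand2, and the hormone-responsive genes Greb1 and Lif. They were chosen by symbol, and all 10 were matched by Ensembl identifier among the 49585 genes counted. Messenger RNA had been sequenced from the whole uterus, fetal tissue included, of 8-week-old pregnant Foxp3DTR females on day 8 of pregnancy (E8). Their mates were BALB/c males, which makes the pregnancy allogeneic. In Foxp3DTR mice the regulatory T cells, defined by the transcription factor Foxp3, carry a diphtheria toxin receptor and are killed by the toxin. One group received intraperitoneal diphtheria toxin (DT), 1 µg per injection on E1, E3, E5 and E7, and the other received PBS on the same days. The protocol also calls the injections daily, and the days given here are those it lists. The submitters describe the regimen as removing 85% of regulatory T cells, which by their account makes the DT group a model of partial loss. There were 4 DT-labelled libraries (replicates 1, 3, 4 and 5) and 4 PBS-labelled libraries (replicates 1, 2, 4 and 6), each named below by its label and number, as in DT 1.

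In the uterus, progesterone acts through the receptor encoded by Pgr and estrogen mainly through the receptor encoded by Esr1, and both are needed for implantation and for decidualization, the change of uterine stroma into the tissue that surrounds the conceptus. Progesterone induces Indian hedgehog (Ihh) in the epithelium. The signal passes to the stroma, where Nr2f2 and Hand2 act, and Hand2 restrains fibroblast growth factors that would otherwise keep estrogen-driven proliferation going in the epithelium. Fkbp4 encodes FKBP52, a co-chaperone that the uterine progesterone receptor needs for full activity, and Fkbp5 encodes its relative FKBP51, which restrains steroid receptors and is itself induced by glucocorticoids and progestins. The comparison addressed whether transcripts of this axis differ in the early pregnant uterus after toxin.

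Sequences upstream of 4 of these genes are shown because Pgr and Hand2 varied together from female to female, while Fkbp4 went the other way and its relative Fkbp5 followed neither in every library. Each line holds the 250 bases before a RefSeq transcription start, from build GRCm38.p6 and written along the strand of the gene. Capitals mark matches on either strand to the letters GGGCGG, known as a GC box, to the CCAAT box, spelled as its name, and to the letters TATAAA of a TATA box. The windows are chr9:8899583-8899832, plus strand, for Pgr, chr8:57320733-57320982, plus strand, for Hand2, chr6:128438657-128438906, minus strand, for Fkbp4, and chr17:28486150-28486399, minus strand, for Fkbp5.
Pgr: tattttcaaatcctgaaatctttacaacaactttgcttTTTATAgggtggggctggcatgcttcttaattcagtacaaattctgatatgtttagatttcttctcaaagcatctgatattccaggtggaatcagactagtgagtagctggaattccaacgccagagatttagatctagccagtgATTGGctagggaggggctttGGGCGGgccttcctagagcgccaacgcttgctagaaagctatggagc
Hand2: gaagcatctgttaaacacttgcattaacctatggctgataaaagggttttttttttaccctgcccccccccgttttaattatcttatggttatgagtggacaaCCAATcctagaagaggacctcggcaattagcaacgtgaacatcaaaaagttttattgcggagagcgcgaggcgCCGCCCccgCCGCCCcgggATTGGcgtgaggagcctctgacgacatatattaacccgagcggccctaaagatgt
Fkbp4: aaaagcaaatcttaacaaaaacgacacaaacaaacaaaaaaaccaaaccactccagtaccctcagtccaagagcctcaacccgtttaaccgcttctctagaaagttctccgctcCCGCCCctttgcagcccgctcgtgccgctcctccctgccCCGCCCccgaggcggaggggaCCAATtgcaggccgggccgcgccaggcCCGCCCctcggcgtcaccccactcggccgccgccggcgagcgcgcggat
Fkbp5: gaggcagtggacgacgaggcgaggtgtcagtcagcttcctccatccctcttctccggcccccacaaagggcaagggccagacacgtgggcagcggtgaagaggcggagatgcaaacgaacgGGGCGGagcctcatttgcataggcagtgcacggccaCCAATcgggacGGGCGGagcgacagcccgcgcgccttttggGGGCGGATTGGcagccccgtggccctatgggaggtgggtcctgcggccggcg
The Fkbp4 window held 3 GC boxes, at positions -136, -97 and -49 from the start, all on the strand opposite to the one printed. It also held 1 CCAAT box, at -76 on the printed strand. In the Fkbp5 window were 3 GC boxes on the printed strand, at -129, -82 and -52. Its 2 CCAAT boxes were at -93 on the printed strand and at -46 on the opposite strand. The Hand2 window held 2 GC boxes, at -74 and -65, both on the opposite strand. It also held 2 CCAAT boxes, at -147 on the printed strand and at -55 on the opposite strand. The Pgr window held 1 GC box at -47 on the printed strand, and 1 CCAAT box at -67 and a TATA box at -212 on the opposite strand. RefSeq promoters of 300 bases, which also take in 50 bases after the start, were matched for 9 of the 10 genes, with 11 starts in all, and none was matched for Nr3c1. The half-site letters TGTTCT, which progesterone and glucocorticoid receptors can bind, were in none of the 11, against 19.0% of 32851 mouse promoters. The estrogen half-site letters GGTCA were in 1 of the Esr1 promoters at position 16 and in both Greb1 promoters, at -194 and -85 in one and at -88 in the other, against 40.5% of all promoters, and GGTCANNNTGACC was in none, against 0.07%. Over the same 300 bases, GC boxes were found in 35.7%, CCAAT boxes in 37.4% and TATA boxes in 13.6% of all promoters. The boxes counted above are those of the shorter 250-base windows, and Fkbp5 had a further GC box at position 2. Of the 9 genes, Fkbp4, Fkbp5, Hand2, Ihh and Pgr had a GC box in the 300 bases. All but Ihh and Lif had a CCAAT box in at least 1 promoter, and only Pgr had a TATA box. These matches are letters only and show no binding.

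Library totals ran from 94794512 to 109847604 counts. Foxp3 itself measured 5.10 to 5.72 CPM (counts scaled to the normalised library size) in the DT-labelled and 4.36 to 5.44 CPM in the PBS-labelled libraries. Its mean was not lower with DT, at 5.41 against 4.89 CPM (log2 fold change of DT minus PBS 0.15 ± 0.10, SE, adjusted p = 0.595 by edgeR). Its level thus did not check the labels or the reported depletion. The summed level of 10 T cell markers did separate the labels, at 18.1 to 22.2 CPM with DT against 8.93 to 9.95 CPM with PBS. Of the 10, Cd28 overlapped, at 2.39 to 3.41 against 1.57 to 3.56 CPM. This sum does not measure the loss of regulatory T cells. Of the tissue markers, those of decidual stroma (10 of 10 detected in every library) summed to 3952 CPM in DT 1, to 8783, 10710 and 11030 CPM in the other DT-labelled libraries and to 7975 to 13840 CPM in the PBS-labelled libraries. Prl8a2, a prolactin-family gene of the decidua, made up 17.4% of that sum in DT 1 and 36.3% to 64.7% elsewhere. The other 9 markers summed to 3265 CPM in DT 1 and to 4885 to 5455 CPM in the other 7 libraries. DT 1 also had the highest sum of 12 epithelial markers, 1624 CPM against 339 to 684 CPM in the other 7 libraries. Most of it came from the gland proteases Prss28 (536 CPM) and Prss29 (729 CPM). Spink1, Foxa2 and Cldn4 were also highest in DT 1. Epcam, Cdh1, Krt7, Krt8, Krt18 and Krt19 were highest in PBS 2, and Cldn3 was lowest in DT 1. PBS 1 and PBS 2 stood apart by conceptus transcripts, with 10 yolk sac markers at 95.9 and 231 CPM against 14.3 to 33.0 CPM elsewhere, and 12 trophoblast markers at 381 and 839.8 CPM against 42.2 to 128 CPM. Of the 12 trophoblast markers, Gcm1, Ctsq and Psg21 were at 0 in at least 1 library and the other 9 were detected in all. Of 8 ovarian markers, Lhcgr, Fshr and Zp3 were at 0 in at least 1 library and the other 5 were detected in all. Among these 5, Cyp11a1 measured 266 to 998 CPM, Star 12.6 to 226 CPM and Inha 1.53 to 3.10 CPM. Cyp19a1 and Amh were at 0.29 CPM or less.

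None of the 10 genes passed the test between the groups. By edgeR's quasi-likelihood test, 0 of 10 were called at an adjusted p under 0.05, against 0.326% of the 22693 genes tested, and their adjusted p ran from 0.558 to 0.829. DESeq2 and limma voom likewise called 0 of 10, against 1.47% and 0.229% of all genes. At an unadjusted p under 0.05 there was 1 gene of the 10 by edgeR (Lif), against 8.70% of all genes, 1 by DESeq2, against 11.4%, and 0 by limma voom, against 8.01%. For 0 of 10 did the groups separate without overlap, against 5.06% of all genes. Log2 fold changes, given throughout as DT minus PBS, were positive for 5 and negative for 5, with a median of -0.09 against 0.01 over all genes, and the median absolute value was 0.27 against 0.16. For 6 of the 10 (Pgr, Esr1, Nr3c1, Fkbp5, Nr2f2 and Hand2) the 95% interval of the fold lay within a 2-fold change in either direction. DT 1 was the lowest of all 8 libraries for 3 of the genes and the highest for 5. In RNA of a whole organ, fewer cells of a type and less RNA per cell cannot be told apart, which applies to every value that follows.

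Pgr (ENSMUSG00000031870, chromosome 9, 8899833 to 8968611, plus strand, GRCm38), the progesterone receptor, measured 237, 299.8, 254 and 319.7 CPM in DT 1, DT 3, DT 4 and DT 5 and 387, 320.0, 269.9 and 336 CPM in PBS 1, PBS 2, PBS 4 and PBS 6. DT 1 and DT 4 lay below every PBS-labelled library, and the other pair fell inside the PBS range. The means were 277 ± 38.8 and 328 ± 48.4 CPM (SD, n = 4 each), which is a log2 fold change of -0.24 ± 0.14 (SE; adjusted p = 0.571 by edgeR), with an interval of 0.679 to 1.05 times the PBS level. Without PBS 1 and PBS 2 the log2 fold change was -0.13, and without DT 1 it was -0.17.

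Esr1 (ENSMUSG00000019768, chromosome 10, 4611593 to 5005614, plus strand), the estrogen receptor alpha, was the more even of the sex steroid receptors. Its levels were 326, 286, 314 and 289 CPM in the DT-labelled and 281, 232, 317 and 286 CPM in the PBS-labelled libraries, in the same order of replicates. Only DT 1 was above the PBS range, and PBS 2 was the lowest library. The groups differed by a log2 fold change of 0.12 ± 0.10 (SE; adjusted p = 0.636 by edgeR), and the interval of 0.922 to 1.29 times left out any change of 1.5-fold. Pgr relative to Esr1 stood at 0.726, 1.05, 0.809 and 1.11 with DT and at 1.38, 1.38, 0.852 and 1.18 with PBS, so that PBS 4 lay among the DT-labelled values.

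Nr3c1 (ENSMUSG00000024431, chromosome 18, 39410545 to 39519421, minus strand), the glucocorticoid receptor, measured 117, 83.4, 86.9 and 82.6 CPM in the DT-labelled and 69.5, 66.3, 83.1 and 83.7 CPM in the PBS-labelled libraries. DT 1 stood far above the rest, and DT 3 and DT 5 were level with PBS 4 and PBS 6. The log2 fold change was 0.29 ± 0.13 (SE), with an unadjusted p of 0.0635 and an adjusted p of 0.571 by edgeR. It was 0.16 without DT 1, 0.15 without PBS 1 and PBS 2, and 0.02 without all 3.

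**Figure D1:**
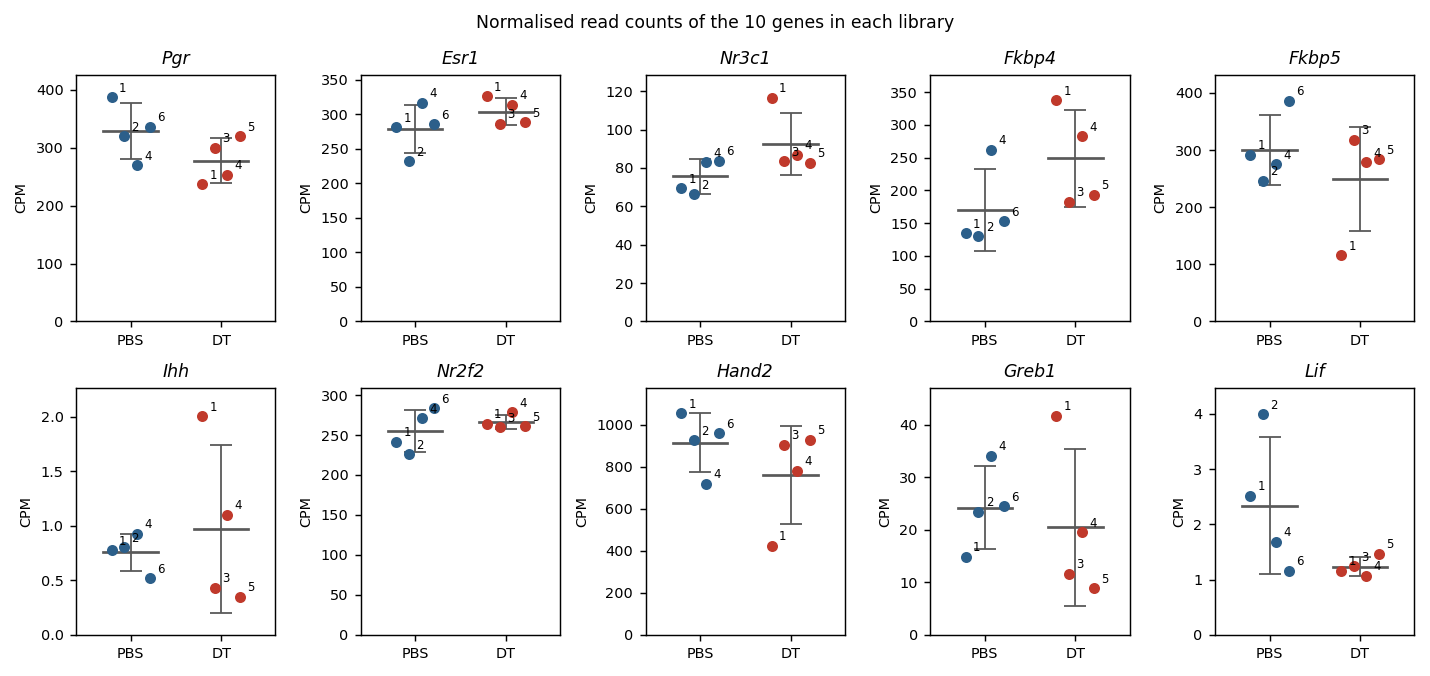
Normalised level of each of the 10 genes in every library, in CPM on axes that start at 0; points are libraries numbered by replicate, horizontal bars are group means and whiskers are 1 SD (n = 4 each). The groups overlap for all 10 genes, and DT 1 is the lowest point for Pgr, Fkbp5 and Hand2 and the highest for Esr1, Nr3c1, Fkbp4, Ihh and Greb1.

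Fkbp4 (ENSMUSG00000030357, chromosome 6, 128429735 to 128438677, minus strand), which encodes FKBP52, had a larger relative difference in means than any of the receptors. It measured 337, 183, 282 and 193 CPM in the DT-labelled and 134, 130.5, 262 and 153 CPM in the PBS-labelled libraries. Of the PBS-labelled libraries 3 lay below every DT-labelled one, and PBS 4 lay above DT 3 and DT 5. The means were 249 ± 73.9 and 169.9 ± 62.1 CPM (SD, n = 4 each). By edgeR the log2 fold change of 0.55 ± 0.28 (SE; unadjusted p = 0.0859) did not pass once adjusted over all genes (adjusted p = 0.571). The interval ran from 0.935 to 2.30 times the PBS level, and the log2 fold change was 0.84 without PBS 4, 0.37 without DT 1, 0.26 without PBS 1 and PBS 2, and 0.08 without DT 1, PBS 1 and PBS 2.

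Fkbp5 (ENSMUSG00000024222, chromosome 17, 28399094 to 28517527, minus strand), which encodes FKBP51, had 1 library far below the others. Its levels were 116, 318, 279 and 284 CPM in the DT-labelled and 292, 246, 275 and 387 CPM in the PBS-labelled libraries. Apart from DT 1, the DT-labelled libraries all lay inside the PBS range. The log2 fold change was -0.27 ± 0.30 (SE; adjusted p = 0.701 by edgeR), with all libraries and -0.03 without DT 1.

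The balance of the co-chaperone transcripts varied more between females than either gene. The ratio of Fkbp5 to Fkbp4 counts was 0.345, 1.74, 0.987 and 1.47 in the DT-labelled and 2.17, 1.89, 1.05 and 2.53 in the PBS-labelled libraries. Fkbp5 exceeded Fkbp4 in every PBS-labelled library and in DT 3 and DT 5, while Fkbp4 exceeded Fkbp5 in DT 1 and, by little, in DT 4. Fkbp5 relative to Nr3c1 was 3.21 to 4.62 in 7 libraries and 0.997 in DT 1. These ratios compare counts, not molecules, since the 2 transcripts of each pair differ in length.

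Ihh (ENSMUSG00000006538, chromosome 1, 74945315 to 74951672, minus strand), the epithelial hedgehog ligand, was the least abundant of the 10 per unit of length, with 36 to 258 reads per library. It measured 2.01, 0.430, 1.10 and 0.349 CPM in the DT-labelled and 0.773, 0.805, 0.926 and 0.520 CPM in the PBS-labelled libraries. The DT-labelled libraries held both the highest and the lowest values. The log2 fold change of 0.37 ± 0.53 (SE; adjusted p = 0.766 by edgeR) became -0.27 without DT 1, and the interval of 0.555 to 3.01 times left the size of any change poorly bounded. DT 1, the library with the most Ihh, was also the one with the highest epithelial marker sum, most of it Prss28 and Prss29. The part of that in its level was not tested.

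Nr2f2 (ENSMUSG00000030551, chromosome 7, 70351944 to 70366735, minus strand), which encodes the nuclear receptor COUP-TFII of the stroma, was the steadiest gene. Its levels were 264, 259.9, 279 and 261 CPM in the DT-labelled and 242, 226, 271 and 283 CPM in the PBS-labelled libraries, a 1.25-fold spread over all 8. Every DT-labelled library lay inside the PBS range. For Nr2f2 the log2 fold change was 0.06 ± 0.09 (SE; adjusted p = 0.776 by edgeR), with an interval of 0.907 to 1.19 times. The antisense gene B130024G19Rik overlaps 7.46% of the exon bases of Nr2f2, and the strand setting of the counting is not given in the sources used here.

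Hand2 (ENSMUSG00000038193, chromosome 8, 57320983 to 57324633, plus strand), the stromal factor that restrains fibroblast growth factor signals, measured 424, 906, 781 and 929 CPM in the DT-labelled and 1056, 925, 719 and 960.3 CPM in the PBS-labelled libraries. Only DT 1 lay outside the PBS range. In Hand2 the log2 fold change was -0.27 ± 0.24 (SE; adjusted p = 0.653 by edgeR), and -0.07 without DT 1. The antisense gene Hand2os1 overlaps 19.6% of the Hand2 exon bases, so reads of the antisense transcript may be included.

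Greb1 (ENSMUSG00000036523, chromosome 12, 16670615 to 16800886, minus strand), a coregulator gene induced by estrogen and progesterone, measured 41.7, 11.6, 19.6 and 8.89 CPM in the DT-labelled and 14.9, 23.4, 34.1 and 24.5 CPM in the PBS-labelled libraries. DT 1 had the highest value of all, and DT 3 and DT 5 had the lowest. Its log2 fold change was -0.24 ± 0.48 (SE; adjusted p = 0.829 by edgeR), with an interval of 0.395 to 1.81 times, and it moved to -0.86 without DT 1 and to 0.005 without DT 5. With the conceptus marker score as covariate it was -0.60, and without DT 1, PBS 1 and PBS 2 it was -1.13 (adjusted p = 0.509 by edgeR). The predicted antisense gene Gm48140 overlaps 7.68% of its exon bases.

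Lif (ENSMUSG00000034394, chromosome 11, 4257557 to 4272514, plus strand), the cytokine that estrogen induces in uterine glands before implantation, had the largest log2 fold change of the 10. It measured 1.16, 1.24, 1.07 and 1.47 CPM in the DT-labelled and 2.52, 3.99, 1.68 and 1.16 CPM in the PBS-labelled libraries. The DT-labelled libraries lay close together, and PBS 6 was as low as DT 1. The means were 1.23 ± 0.169 and 2.34 ± 1.24 CPM (SD, n = 4 each). Its log2 fold change of -0.92 ± 0.35 (SE; unadjusted p = 0.0308) likewise did not pass by edgeR after adjustment (adjusted p = 0.558). It was -0.21 without PBS 1 and PBS 2, the libraries with the most conceptus transcripts, and -0.35 with a conceptus marker score as covariate. Between 105 and 387 reads per library lay behind these values.

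**Figure D2:**
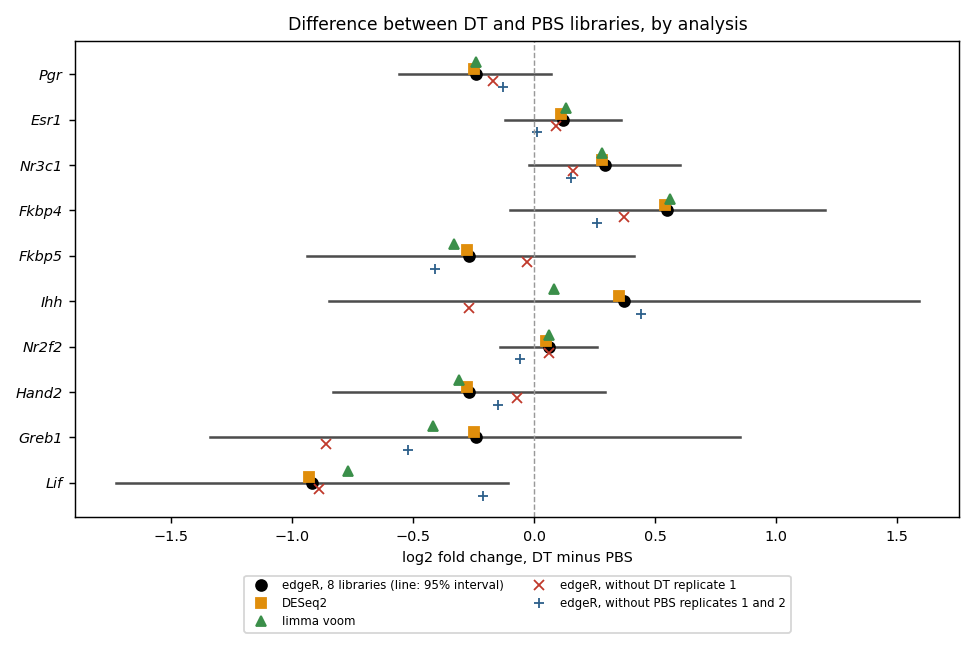
Log2 fold change (DT minus PBS) of the 10 genes; black points and lines are the edgeR estimate and its 95% interval from all 8 libraries, and the other marks are DESeq2, limma voom and edgeR with libraries left out. Lif is the 1 gene whose interval leaves out 0 (-1.73 to -0.11), and its estimate without PBS 1 and PBS 2 is -0.21.

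Between genes, levels were compared per kilobase of exon in the PBS-labelled libraries. Hand2 was the most abundant at 389 ± 60.4 CPM per kilobase (SD, n = 4), followed by Fkbp4 at 60.8 ± 22.2, Pgr at 38.4 ± 5.66, Fkbp5 at 31.7 ± 6.42, Nr2f2 at 29.6 ± 3.05, Esr1 at 20.4 ± 2.56 and Nr3c1 at 9.85 ± 1.17. Greb1 (2.53 ± 0.824), Lif (0.537 ± 0.284) and Ihh (0.248 ± 0.056 CPM per kilobase) were far lower. The library ranges of neighbours in this order overlapped for Pgr with Fkbp5, Fkbp5 with Nr2f2, and Lif with Ihh, and did not overlap for the other neighbours. In the DT-labelled libraries the means placed Nr2f2 (30.8 CPM per kilobase) above Fkbp5 (26.3) and Ihh (0.319) above Lif (0.284), and both exchanges rested on DT 1. Without it, Fkbp5 (31.0) and Nr2f2 (30.9) were level and Lif (0.289) was above Ihh (0.206). Spread within a group also differed between the genes. The coefficient of variation in the DT-labelled libraries was 79.0% for Ihh and 72.8% for Greb1, against 3.24% for Nr2f2 and 6.42% for Esr1. For Lif it was 13.7% in the DT-labelled and 52.9% in the PBS-labelled libraries.

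Across the 8 females of both groups, several of the genes varied together. Of 45 pairs of the 10 genes, 6 had a Pearson correlation of log2 CPM with a Benjamini-Hochberg adjusted exact permutation p under 0.05, 3 had such a Spearman correlation and 2 had both. The share of such pairs over all genes was not computed, so these counts do not set the 10 genes apart. Each of the 10 also had an r of 0.948 or more with genes outside the 10. Pgr and Hand2 varied together (r = 0.85, p = 0.000843, adjusted p = 0.0159; rho = 0.95, p = 0.00114, adjusted p = 0.0171; exact permutation, n = 8), and without DT 1 and PBS 1, the libraries farthest from the median of Pgr, r was 0.90. Esr1 and Fkbp4 did the same (r = 0.85, p = 0.00238, adjusted p = 0.0214; rho = 0.98, p = 0.000397, adjusted p = 0.0171; exact permutation), and r was 0.94 without PBS 2 and DT 1. Pgr and Fkbp4 moved in opposite directions (r = -0.93, p = 0.00141, adjusted p = 0.0159; rho = -0.90, p = 0.00456, adjusted p = 0.0513; exact permutation), with r = -0.90 without DT 1 and PBS 1. Libraries with more transcript of the receptor thus held less of the transcript for its co-chaperone.

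Nr3c1 rose with Fkbp4 (r = 0.85, p = 0.00112, adjusted p = 0.0159; rho = 0.79, p = 0.0279, adjusted p = 0.157; exact permutation) and Hand2 fell as Fkbp4 rose (r = -0.84, p = 0.00122, adjusted p = 0.0159; rho = -0.79, p = 0.0279, adjusted p = 0.157; exact permutation), with r of 0.70 and -0.86 without the libraries farthest from the median of Nr3c1 (DT 1 and PBS 2) and of Fkbp4 (DT 1 and DT 4). Nr3c1 and Lif were opposed by rank (rho = -0.95, p = 0.00114, adjusted p = 0.0171; r = -0.77, p = 0.0369, adjusted p = 0.104; exact permutation), and r was -0.92 without DT 1 and PBS 2. The relation of Nr2f2 to Lif (r = -0.91, p = 0.00471, adjusted p = 0.0353; rho = -0.74, p = 0.0458, adjusted p = 0.159; exact permutation) rested on PBS 1 and PBS 2, without which r was -0.35. That of Fkbp5 to Hand2 (r = 0.89, p = 0.0333, adjusted p = 0.0999; rho = 0.69, p = 0.0694, adjusted p = 0.184; exact permutation) rested on DT 1 and PBS 6, and r was 0.17 without them. The pairs of lower agreement included Ihh with Lif (r = -0.03) and Ihh with Nr2f2 (r = 0.01).

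**Figure D3:**
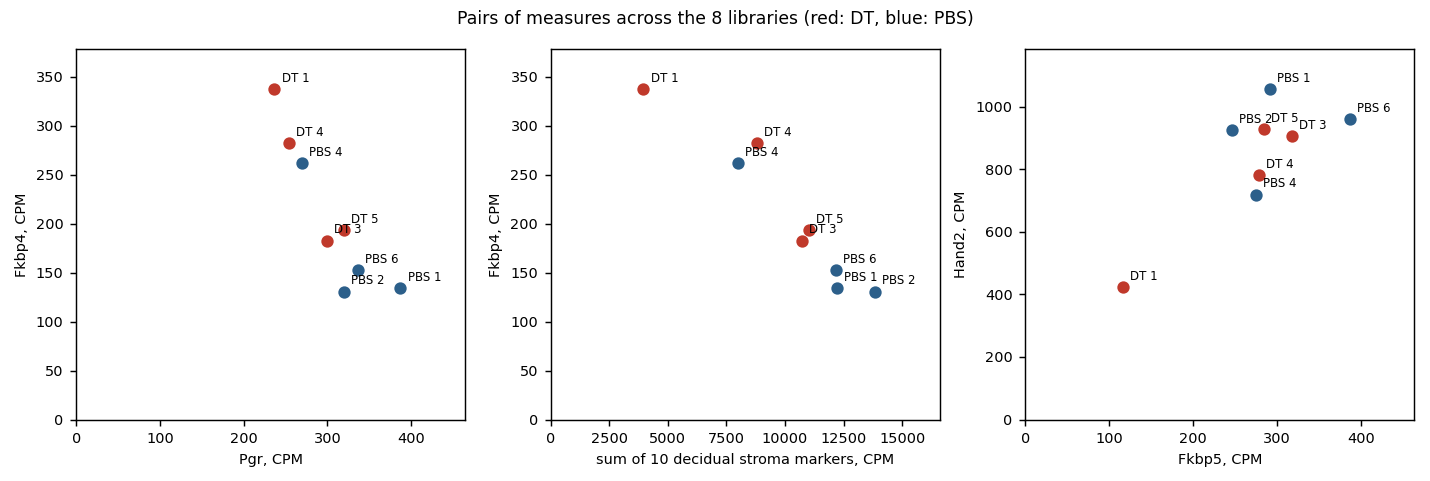
Pairs of measures in the 8 libraries, in CPM with axes from 0; red points are DT-labelled, blue points PBS-labelled, each with its replicate number. Fkbp4 falls as Pgr rises and as the summed decidual stroma markers rise, of which Prl8a2 is 17.4% to 64.7%, with the 2 colours along 1 trend, while in the plot of Hand2 against Fkbp5 DT 1 lies alone at low values of both.

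Several of the genes followed the summed level of the 10 decidual stroma markers, a relation looked for after the values had been seen, and those that passed with all 10 markers did not pass without Prl8a2. In 10 relations of this kind, Hand2 (r = 0.98, p = 0.00159, adjusted p = 0.00752; rho = 0.86, p = 0.0107, adjusted p = 0.0268) and Pgr (r = 0.81, p = 0.00724, adjusted p = 0.0181; rho = 0.90, p = 0.00456, adjusted p = 0.0152) rose with it by exact permutation test, and Fkbp4 fell (r = -0.88, p = 0.000273, adjusted p = 0.00273; rho = -0.95, p = 0.00114, adjusted p = 0.0057). Leaving out DT 1 and PBS 4, the libraries farthest from the median, gave r of 0.75, 0.75 and -0.97. Nr3c1 fell by Pearson's measure (r = -0.91, p = 0.00226, adjusted p = 0.00752; rho = -0.76, p = 0.0368, adjusted p = 0.0735; exact permutation), and Esr1 by rank (rho = -0.98, p = 0.000397, adjusted p = 0.00397; r = -0.75, p = 0.0616, adjusted p = 0.088; exact permutation). For Fkbp5, r was 0.85 with all libraries and -0.05 without DT 1 and PBS 4, and for Ihh it was -0.75 and -0.16. With the other 9 decidual markers in place of all 10, no adjusted p was under 0.05 for Hand2 (r = 0.92, p = 0.0331, adjusted p = 0.11; rho = 0.69, p = 0.0694, adjusted p = 0.231; exact permutation), Pgr (r = 0.62, p = 0.111, adjusted p = 0.159; rho = 0.55, p = 0.171, adjusted p = 0.342; exact permutation) or Fkbp4 (r = -0.59, p = 0.0686, adjusted p = 0.147; rho = -0.31, p = 0.462, adjusted p = 0.66; exact permutation). Leaving out DT 1 and PBS 6, the libraries farthest from the median of the 9, gave r of 0.18, 0.11 and 0.23. Nr3c1 (r = -0.73) and Esr1 (rho = -0.33) did not pass with the 9 markers either. Fkbp5 did (r = 0.97, p = 0.000818, adjusted p = 0.00818; rho = 0.93, p = 0.00223, adjusted p = 0.0223; exact permutation), with r of 0.74 without DT 1 and PBS 6. Ihh passed by Pearson's measure only (r = -0.80, p = 0.00506, adjusted p = 0.0253; rho = -0.83, p = 0.0154, adjusted p = 0.0769; exact permutation), with r of -0.73 without them. PBS 4 was low in the sum of 10 through Prl8a2, at 2893 CPM, and at 5081 CPM was not low in the sum of the other 9. DT 1 and PBS 4 had the highest sums of 8 myometrial markers, 4943 and 5044 CPM against 3935 to 4495 CPM elsewhere. Des, the most abundant of these, was lowest in DT 1, at 1800 CPM against 2330 to 2850 CPM elsewhere. The others (Myh11, Acta2, Actg2, Cnn1, Tagln, Smtn and Lmod1) were each highest in DT 1 and next highest in PBS 4. Myh11 measured 1100 CPM in DT 1 and 849 CPM in PBS 4. The decidual, myometrial and epithelial sums and the conceptus transcripts all differed between females of 1 group, and their part in the differences of the 10 genes was not tested.

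**Figure D4:**
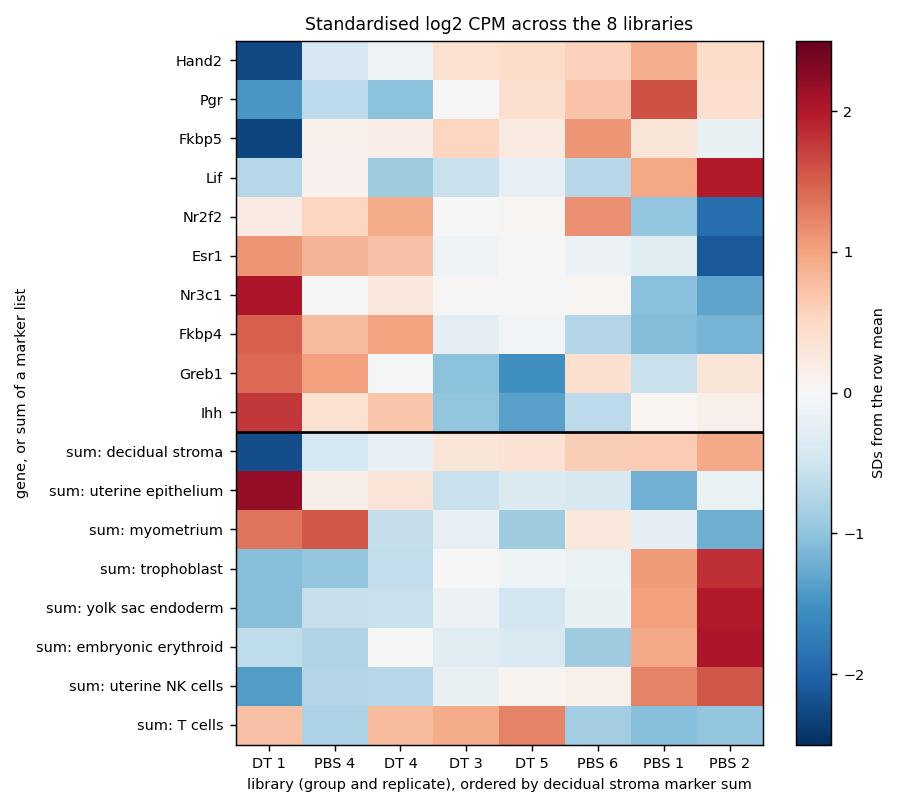
Log2 CPM of the 10 genes and log2 of the summed CPM of 8 marker lists in each library, each row given in SDs from its own mean over the 8 libraries; red is above and blue below the mean, and libraries are ordered by the decidual stroma sum, most of which is Prl8a2 in the libraries to the right. DT 1, at the left, is lowest for decidual stroma, Hand2, Pgr and Fkbp5. It is highest for Nr3c1, Fkbp4 and the epithelial sum, most of which is Prss28 and Prss29 in DT 1. PBS 1 and PBS 2, at the right, are highest for the trophoblast, yolk sac and embryonic erythroid sums.

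The genes whose pattern was most like each of the 10 were sought among 10610 genes whose log2 CPM averaged 3 or more. Predicted genes (Gm with a number), Rik clones and genes with an Ensembl identifier only were left out of these. The measure was Pearson r of log2 CPM over the 8 libraries, and genes share the depth scaling and tissue makeup of those libraries. Nearest to Pgr were Sptbn1 and Calm3 (r = 0.984 each) and Aak1 (0.983). Hand2 had the closest neighbours, Stx11 (0.997), Ctdspl (0.996) and Ccdc91 (0.995), and Nr3c1 was followed by Zfp217 (0.993), Gxylt2 (0.992) and Smad5 (0.991). For Esr1 they were Sardh (0.990), Det1 (0.989) and Daam2 (0.986), and for Fkbp4 they were C1qtnf12 (0.992), Kng1 (0.990) and Arxes2 (0.989). Fkbp5 lay nearest to Eef2k (0.982), Plcd3 (0.979) and Cipc (0.977), Greb1 to genes that included Polr1b (0.977) and Cenpc1 (0.967), and Lif to Tuba1c (0.980), Fam57a (0.974) and Klf16 (0.973). Values were lower around Nr2f2, with Smarca2 (0.967), Mks1 (0.957) and Nid2 (0.953), and around Ihh, with Zfp385a (0.970), Pde3b (0.948) and Polr1e (0.948). No gene of the 10 was among the nearest of another, but Ihh and Lif lay below the level searched and could not have been.

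The wider pathway was read from 9 lists with 139 genes, of which 133 were tested. By edgeR 0 of the 133 were called, against 0.326% of all genes, and by limma voom 0, against 0.229%. By DESeq2 1 of the 133 was called, Gli3, against 1.47% of all genes. At an unadjusted p under 0.05 by edgeR 1 was higher and 9 were lower in the DT-labelled libraries, 10 of 133 against 8.70% of all genes, and the median log2 fold change was -0.01. The groups did not overlap for 3 genes (Lrp2, Amd1 and Gli3, all lower), against 5.06% of all genes.

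Among 12 other steroid receptors, 2 were lower at an unadjusted p under 0.05, and the median log2 fold change was -0.16. Pgrmc1, a membrane-associated progesterone-binding protein, measured 109 to 138 CPM in the DT-labelled and 136 to 160.0 CPM in the PBS-labelled group; its log2 fold change was -0.22 ± 0.09 (SE; adjusted p = 0.571 by edgeR), and that of its relative Pgrmc2 was -0.21 ± 0.11. The orphan receptor Esrrg, of low level and named only because it makes up the count, measured 0.444 to 0.883 CPM against 0.699 to 1.95 CPM, with a log2 fold change of -0.88 ± 0.36 (SE; adjusted p = 0.562 by edgeR). For Esrra, an estrogen-related orphan receptor, it was -0.15 ± 0.12. The 16 coregulators (median 0.04) and 16 chaperones (median 0) had no gene at an unadjusted p under 0.05. Among those of lowest unadjusted p were Sox17 (-0.22 ± 0.10) and Pelp1 (0.12 ± 0.08) of the coregulators, and Hsph1 (-0.26 ± 0.13), Hspa4 (-0.11 ± 0.06) and Bag1 (-0.20 ± 0.13) of the chaperones. Hsp90ab1, the abundant heat shock protein 90 to which FKBP52 and FKBP51 bind, measured 1610 to 1720 CPM against 1660 to 1750 CPM, and its co-chaperone Ptges3 135 to 148 against 135 to 158 CPM. Both were chosen for mention after their values were seen.

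Of 19 uterine progesterone targets tested, 3 were lower at an unadjusted p under 0.05 and none higher, with a median of -0.10. Lrp2, the endocytic receptor megalin, measured 3.83 to 6.19 CPM in the DT-labelled libraries and 18.0, 23.2, 6.53 and 6.60 CPM in PBS 1, PBS 2, PBS 4 and PBS 6. Its log2 fold change of -1.36 ± 0.44 (SE; adjusted p = 0.502 by edgeR) was -0.32 without PBS 1 and PBS 2, the libraries rich in yolk sac transcripts. Hsd11b2, which inactivates glucocorticoids, measured 51.5, 22.3, 32.6 and 16.8 against 40.4, 64.9, 55.0 and 69.8 CPM, with only DT 1 inside the PBS range. Its log2 fold change was -0.90 ± 0.34 (SE; adjusted p = 0.553 by edgeR), and with each library left out in turn it ran from -1.27 (without DT 1) to -0.70 (without DT 5). Amd1, of polyamine synthesis, had a log2 fold change of -0.35 ± 0.13 (SE; adjusted p = 0.557 by edgeR). Hoxa10, Bmp2 and Wnt4, which act in decidualization, had values of 0.09 ± 0.08, -0.11 ± 0.21 and 0.23 ± 0.20 and were chosen for mention after their values were seen.

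The 18 uterine estrogen targets tested had a median of 0.08, and at an unadjusted p under 0.05 there was 1 gene in each direction. Complement component C3 measured 1110, 450, 633 and 395 CPM against 243, 363, 440 and 407 CPM, with DT 1 far above the rest. The log2 fold change was 0.84 ± 0.34 (SE; adjusted p = 0.562 by edgeR), and 0.44 without DT 1. Padi1, a peptidylarginine deiminase, had a log2 fold change of -0.97 ± 0.30 (SE; adjusted p = 0.475 by edgeR), or -0.47 without PBS 1 and PBS 2. Wnt7b, an epithelial Wnt ligand, was at 15.8 CPM in DT 1 and at 8.14 to 8.73 CPM in the other DT-labelled libraries, against 5.73 to 8.63 CPM.

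In the hedgehog pathway, downstream of Ihh, 10 of 13 genes tested had positive values (median 0.15), and 1 gene was lower at an unadjusted p under 0.05. The split was 12 positive to 1 negative when libraries were scaled by size only, and 5 to 8 (median -0.02) without DT 1, PBS 1 and PBS 2. That gene was Gli3, which acts mainly as a repressor of hedgehog targets. It measured 81.4, 70.7, 76.6 and 66.6 CPM in the DT-labelled and 91.2, 84.8, 88.4 and 92.5 CPM in the PBS-labelled libraries. No DT-labelled library reached the lowest PBS-labelled one. The log2 fold change was -0.27 ± 0.07 (SE), which did not pass by edgeR (adjusted p = 0.383) or limma voom (adjusted p = 0.379) and passed by DESeq2 (adjusted p = 0.0317). It ranged from -0.32 to -0.23 with each library left out in turn, was -0.34 without DT 1, PBS 1 and PBS 2, and was -0.15 when libraries were scaled by size only. Gli1 and Gli2, an inducible target and an activator of the pathway, were highest in DT 1 (37.1 and 35.1 CPM) and had log2 fold changes of 1.16 ± 0.56 and 0.83 ± 0.36 (SE), each with an adjusted p of 0.571 by edgeR, or 0.07 and 0.08 without DT 1, PBS 1 and PBS 2. The receptor Ptch1 had a value of 0.13 ± 0.24 and was also chosen after its value was seen.

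The 11 genes of the fibroblast growth factor arm that Hand2 restrains had a median of -0.02, with 1 lower at an unadjusted p under 0.05. That gene was the receptor Fgfr4, of low level, at 0.456 to 0.699 CPM with DT and 0.689 CPM or more with PBS and a log2 fold change of -0.74 ± 0.22 (SE; adjusted p = 0.451 by edgeR). Among those of higher level, the adaptor Frs2 had a log2 fold change of 0.34 ± 0.19, the receptor Fgfr1 one of -0.63 ± 0.35 and the ligand Fgf9 one of 0.42 ± 0.27. Of 16 genes of the LIF pathway, none was under that p (median -0.02). Osm, a cytokine of the same family, measured 0.541 to 0.670 CPM in the DT-labelled libraries and 1.95, 4.93, 0.453 and 0.283 CPM in PBS 1, PBS 2, PBS 4 and PBS 6, so its log2 fold change of -1.65 ± 0.80 turned to 0.71 without PBS 1 and PBS 2. The receptor gene Il11ra1 had a value of -0.53 ± 0.26 and the growth factor gene Hbegf one of -0.31 ± 0.17. Without PBS 1 and PBS 2 the values were 0.07 for Frs2, -0.08 for Fgfr1, 0.13 for Fgf9, -0.10 for Il11ra1 and -0.04 for Hbegf.

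Of 17 glucocorticoid-responsive genes, 14 had negative and 3 positive values, with a median of -0.28 against 0.01 over all genes. Without DT 1 the median was -0.18, without PBS 1 and PBS 2 it was -0.19, and without all 3 the split was 9 negative to 8 positive with a median of -0.01. At an unadjusted p under 0.05, 2 were lower, Hsd11b2 and Map3k6 (-0.42 ± 0.16, SE; edgeR adjusted p = 0.558), and none was called. The metallothionein gene Mt2 measured 99.4, 367, 251 and 365 CPM with DT and 524, 521, 331 and 444 CPM with PBS, with its lowest value in DT 1, where Fkbp5 was also lowest and Nr3c1 highest. Its log2 fold change was -0.75 ± 0.38. Map3k6 moved to -0.23 without PBS 1 and PBS 2 and to -0.11 without these and DT 1.

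**Figure D5:**
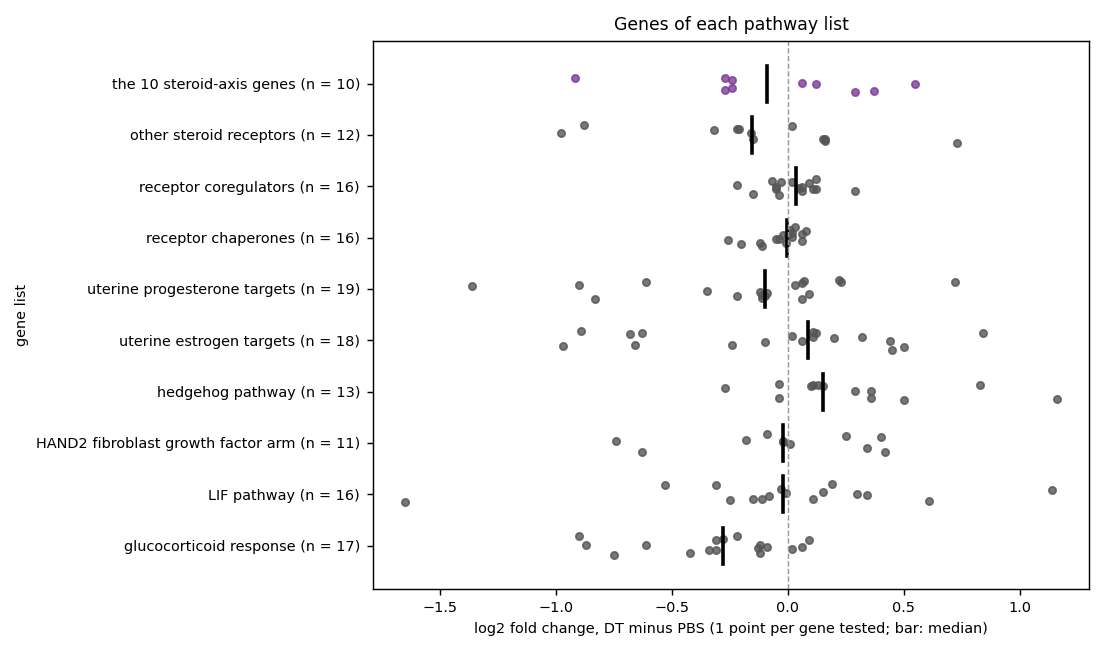
Log2 fold change (DT minus PBS) of each gene tested in the 9 pathway lists and of the 10 genes at the top; each point is 1 gene, spread vertically for legibility, and black bars are list medians. Medians lie between -0.28 (glucocorticoid response) and 0.15 (hedgehog pathway), and no point passed the edgeR test.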

How the data were processed

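The deposited files hold raw counts of reads per Ensembl gene for 4 DT-labelled and 4 PBS-labelled libraries. Build GRCm38 and the tools HISAT2, featureCounts, Trimmomatic, DESeq2 and SAMtools are named per the submitters' processing notes. Not given in the sources used here are their versions, the strand setting and how shared reads were treated. Per the labels' protocols, mRNA libraries (Kapa mRNA hyperprep kit) were read as pairs of about 75 bases. The series table and library tables differed in 0 cells. Identifiers were matched to GENCODE mouse M21 (49326 genes; the other 259 held 0.076% of counts). Libraries differed by more than sampling noise (smallest chi-square per degree of freedom 28.81 over 28 pairs). The sample titles number the libraries within each treatment, and each library was taken as 1 separate female.

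Counts were fitted over all genes with edgeR 4.0.16 (R 4.3.3): filterByExpr (minimum count 10, total 15), TMM scaling, robust quasi-likelihood test, two-sided, treatment as the only term, Benjamini-Hochberg adjustment, calls at an adjusted p under 0.05. The biological coefficient of variation was 25%, so differences between females and not counting error limited the precision. CPM values use TMM-scaled library sizes. DESeq2 1.42.0, limma 3.58.1 voom and 16 other settings were alternatives. The scripts were tested on simulated data. Correlations of log2 CPM (prior count 2) used exact two-sided permutation tests (Python 3.11.15, scipy 1.17.1). In each pathway list the 3 genes of smallest unadjusted p whose log2 CPM averaged 0 or more were named, except that a few items are not reported here. The 10 genes and the lists were chosen with earlier results of these data known. Promoter sequences are from RefSeq (GRCm38.p6).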

Additional observations from a re-analysis of the deposited data

Results flagged for a closer look

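A library was singled out when its gap to the nearest other library of its group was above Dixon's 95% critical value for its share of the group's range, which chance gives in about 1 of 20 groups of 4, and 72 groups were examined. Nr3c1 measured 116.6 CPM in DT 1 against 82.6 to 86.9 CPM in the other DT-labelled libraries. Fkbp4 measured 261.9 CPM in PBS 4 against 130.5 to 153 CPM in the other PBS-labelled libraries. DT 1 also stood apart for Pgrmc1 (108.9 against 134 to 138 CPM), Amd1 (71.3 against 101 to 105 CPM) and Wnt7b (15.8 against 8.14 to 8.73 CPM). DT 1 was the library with the lowest decidual marker sum, with or without Prl8a2. It also had the highest epithelial sum, most of it Prss28 and Prss29. The part of these sums in its values was not tested.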

How the results depend on the processing

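None of the 10 genes was called under any of the 18 alternatives, and of their 179 log2 fold changes there 170 kept their direction and side of the threshold. Several alternatives called 0 of all genes, so 0 of the 10 was fixed there. These were the fits without DT 3, DT 4, DT 5, PBS 1, PBS 2 or PBS 6, and the replicate block. The main fit called 0.326% of all genes, so 0 of 10 does not set these genes apart. The counts over all genes were not stable. With 1 library left out in turn, the number higher in the DT-labelled libraries ran from 0 to 115 (73 with all libraries) and the number lower from 0 to 5 (1 with all libraries). DESeq2 called 275 higher and 58 lower, the fit scaled by library size only 2 lower, the fit with a conceptus score as covariate 37 higher and 0 lower, and that without PBS 1 and PBS 2 0 higher. For the 2 shared replicate numbers, deviations from the group means had correlations of -0.491 (number 1) and 0.321 (number 4). Libraries of different numbers gave -0.604 to 0.592, so these values cannot decide whether the numbers mark pairs. They were not read as pairs in the main fit. With the replicate block, 0 genes were called higher and 0 lower, and Greb1 had a log2 fold change of 0.34, Hsd11b2 -0.20 and Gli3 -0.19. Of the 133 pathway genes tested, 1 was called by DESeq2, Gli3 (-0.28), against 1.47% of all genes.

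Directions turned as follows, and the cause was not tested. With 1 library left out in turn, Ihh ran from -0.27 (without DT 1) to 0.65 and Greb1 from -0.86 to 0.005 (without DT 5). Nr2f2 was at -0.03 with the conceptus score and at -0.06 without PBS 1 and PBS 2, where Osm was at 0.71; with the score Osm was at 0.31. Scaled by library size only, which moved the median of all genes to 0.12, Hspa4 was at 0.01. Without DT 1, PBS 1 and PBS 2, an alternative chosen after seeing the data, the values were -0.03 for Esr1, -0.21 for Ihh, -0.06 for Nr2f2, 0.05 for Hand2, 0.01 for Pgrmc2, 0.05 for Esrra, 0.04 for Bag1, 0.10 for Fgfr1, -0.07 for Fgf9, 0.69 for Osm, 0.03 for Il11ra1 and 0.04 for Hbegf. Ihh could not be tested under the filter of at least 1 CPM in 4 libraries.

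The sample titles carry a suffix whose meaning is not stated: PBS 1 and PBS 2 share one, as do PBS 4 and PBS 6, DT 1 and DT 3, and DT 4 and DT 5. No suffix holds both treatments, so no comparison of treatment within a suffix was possible, and a batch of that kind and the treatment cannot be told apart. PBS 1 and PBS 2, which share a suffix, are the libraries rich in conceptus transcripts on which the values of Lif, Lrp2 and Osm rest.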
